A study of Mus musculus with 6 samples.

Results

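Epithelial-mesenchymal transition (EMT) is the switch by which epithelial cells lose their junctions and take on a migratory, mesenchymal state. Its regulators and markers are described here as 10 genes chosen by name, out of 53379 genes in the deposited expected count table: Cdh1, Cdh2, Vim, Zeb1, Zeb2, Snai1, Snai2, Twist1, Fn1 and S100a4. In textbook EMT, transcription factors of the Snail, Zeb and Twist families bind E-box motifs, DNA hexamers of the form CANNTG, and repress Cdh1, which encodes the adhesion protein E-cadherin. Cells then gain N-cadherin (Cdh2), the intermediate filament vimentin (Vim) and the matrix protein fibronectin (Fn1), and in pancreatic ductal adenocarcinoma partial and complete forms of the switch are both known. S100a4, a calcium-binding protein also called fibroblast-specific protein, is widely used as a marker of the mesenchymal state, although other cell types express it too.

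The libraries hold stranded total RNA of mouse pancreatic tumour organoids, epithelial cultures kept in a matrigel dome in complete organoid medium. Every culture derives from KPC mice on a C57/Bl6 background. Both groups carry Pdx1-Cre and 1 Trp53LSLR172H allele, and Cre under the pancreatic Pdx1 promoter switches on the mutant Trp53 allele. Lines 6, 23 and 34 each gave 1 heterozygous library (Trp53LSLR172H/+, n = 3) and 1 library with loss of heterozygosity (LOH, Trp53LSLR172H/-, n = 3). The sample descriptions of the LOH libraries also carry a suffix without a stated meaning, so that suffix and the genotype cannot be told apart. No label says whether the libraries of 1 line come from separate mice or passages, so p-values measure the spread between these libraries.

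Library totals ran from 13680458 to 27917277 expected counts, and 3 counts corresponded to 0.1 to 0.223 CPM (counts scaled to a common library size, by TMM here). Trp53, the gene named in the genotypes, gave 77.3, 76.3 and 86.5 CPM in lines 6, 23 and 34 when heterozygous, and 73.5, 52.5 and 47.4 CPM in the LOH libraries, by line. The edgeR test gave it a log2 fold change of -0.47 (adjusted p 0.227), and gene counts do not separate the mutant from the wild-type transcript. Epithelial markers (10 genes, such as Epcam and Krt8) summed to 5025 to 6177 CPM in heterozygous and 5387 to 12380.5 CPM in LOH libraries. Fibroblast markers (10 genes) summed to 0 to 0.1 CPM and to 0.559 to 0.873 CPM, with Col3a1, Thy1 and Dpt at 0 counts in all 6 libraries. Leukocyte markers (10 genes) summed to 1.93 to 2.37 CPM and to 4.19 to 14.9 CPM, mostly from Cd68, and endothelial markers (8 genes) to 0.519 to 0.901 CPM and to 0.868 to 3.20 CPM. These sums were higher in every LOH library than in every heterozygous one for fibroblasts and leukocytes, but overlapped between the groups for epithelial and, narrowly, for endothelial genes. Their part in differences between the genotypes was not tested. In bulk RNA, fewer cells of a type and less RNA per cell cannot be told apart.

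On a length-corrected scale (TPM, transcript abundance corrected for length and depth, as deposited), the 10 genes spanned from 0 to 192.4 TPM. Cdh1 stood highest, at 86.5 to 192.4 TPM, and ranked between 400 and 823 of 53379 genes in the single libraries. S100a4 followed at 9.32 to 55.8 TPM, and Fn1 at 1.14 to 8.61 TPM. The lowest Cdh1 value lay above the highest S100a4 value, and the lowest S100a4 value lay above the highest Fn1 value. From Fn1 down the order was not resolved. Vim (0.14 to 8.34 TPM) and Twist1 (0.03 to 1.26 TPM) overlapped Fn1 and each other, and Cdh2 (0.03 to 0.35 TPM) overlapped Vim and Twist1. In both libraries of line 34 Vim was above Fn1, at 8.34 against 2.05 TPM when heterozygous and 5.79 against 1.14 TPM with LOH. Zeb1, Zeb2, Snai1 and Snai2 had at most 0.05 TPM in any library.

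**Figure D1:**
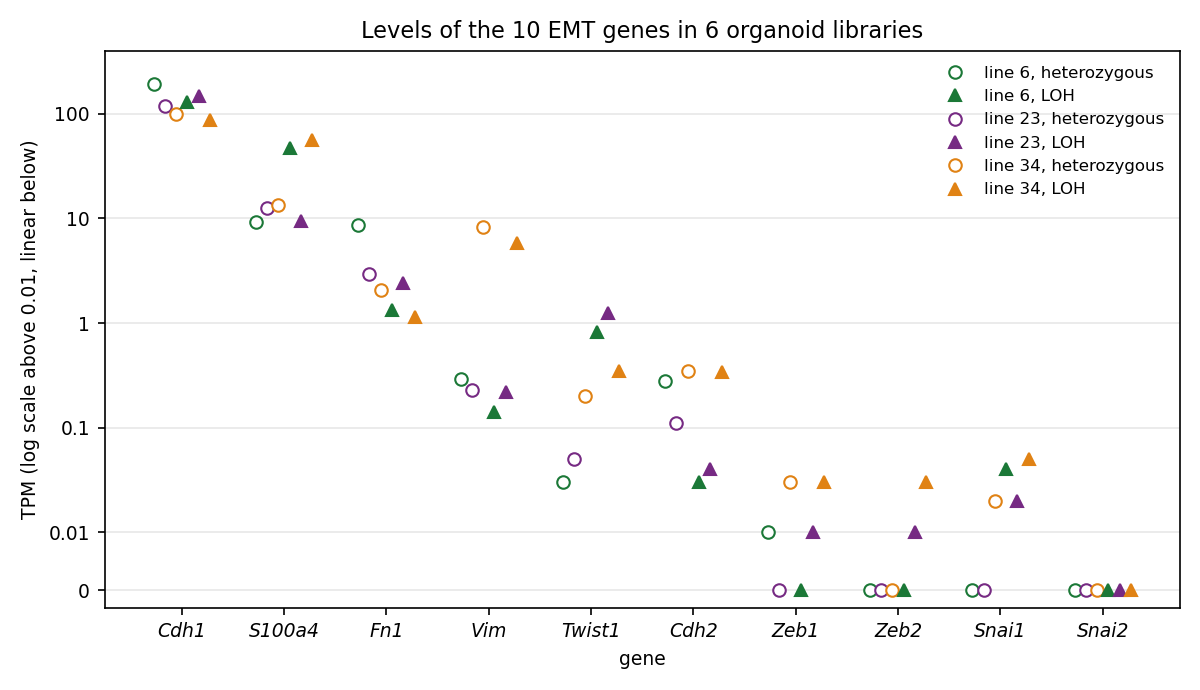
TPM (vertical axis, log scale above 0.01 and linear below) of the 10 EMT genes, with 1 point per library, colours for organoid lines 6, 23 and 34, open circles for heterozygous and filled triangles for LOH libraries. Cdh1 lies between 86.5 and 192.4 TPM in all 6 libraries, whereas Zeb1, Zeb2, Snai1 and Snai2 stay at or below 0.05 TPM.

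RefSeq promoter windows matched 5 of the 10 genes. The 250 bases before the start site are printed for Twist1 and S100a4, which showed the widest genotype differences, and for Snai1, whose window alone among the 5 genes holds CACCTG, the E-box form that Snail and Zeb factors prefer. Capitals mark CACCTG or CAGGTG (its reverse complement) and TATAA, the core of the TATA box, searched on both strands. The windows lie at chr12:33957421-33957670 for Twist1, chr3:90603520-90603769 for S100a4 and chr2:167537945-167538194 for Snai1, all on the plus strand of GRCm38.p6 and written 5′ to 3′.
Twist1: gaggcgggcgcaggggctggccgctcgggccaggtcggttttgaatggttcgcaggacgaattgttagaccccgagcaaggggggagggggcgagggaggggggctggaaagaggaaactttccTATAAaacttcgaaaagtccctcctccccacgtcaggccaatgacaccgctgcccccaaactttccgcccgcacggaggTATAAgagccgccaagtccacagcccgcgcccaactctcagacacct
S100a4: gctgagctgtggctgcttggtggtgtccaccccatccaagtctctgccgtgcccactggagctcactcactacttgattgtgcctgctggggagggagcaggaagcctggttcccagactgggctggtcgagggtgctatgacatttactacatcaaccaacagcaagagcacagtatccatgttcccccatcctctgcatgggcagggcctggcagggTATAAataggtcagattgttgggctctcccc
Snai1: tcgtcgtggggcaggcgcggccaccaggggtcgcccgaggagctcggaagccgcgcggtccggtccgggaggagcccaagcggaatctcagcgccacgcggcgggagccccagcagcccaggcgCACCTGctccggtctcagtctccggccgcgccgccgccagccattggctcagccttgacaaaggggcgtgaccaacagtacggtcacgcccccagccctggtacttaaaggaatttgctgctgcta
In the Snai1 window CACCTG begins 126 bases before the start, and 17.2% of 32851 mouse promoter windows of this length hold that hexamer on either strand. TATAA begins 47 bases before the start of Twist1, with a second match further upstream, and 31 bases before the start of S100a4, against 22.8% of windows with a match. The general form CANNTG, of which CACCTG is 1 case, occurs in neither the Twist1 nor the S100a4 window, and in 66.2% of all windows. These matches describe letters in the windows and not sites of binding.

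Among the factors that act on Cdh1, Zeb1, Zeb2, Snai1 and Snai2 were at or near 0. Zeb1 (ENSMUSG00000024238.14, chromosome 18), a repressor of Cdh1, gave 1, 0 and 3 counts in lines 6, 23 and 34 when heterozygous, and 0, 2 and 2 counts in the LOH libraries, by line. Its relative Zeb2 (ENSMUSG00000026872.17, chromosome 2) had 0, 0 and 0 counts and 0, 1 and 3 counts. Snai1 (Snail, ENSMUSG00000042821.7, chromosome 2), another direct repressor of Cdh1, had 0, 0 and 1 counts and 1, 1 and 2 counts. Snai2 (Slug, ENSMUSG00000022676.6, chromosome 16), the remaining Snail family repressor here, had 0 counts in each of the 6 libraries, which allows up to 0.1 to 0.223 CPM depending on depth. None of these 4 genes passed the filter on low counts, so no fold change is given, and no difference was detectable at this depth. The antisense gene Zeb2os, which overlaps Zeb2, had 0 to 2 counts. Snai3, a further Snail family gene outside the 10 and named after its values were seen, had 28 to 91 counts, at 1.15 to 3.4 TPM, and a log2 fold change of 0.74 (edgeR adjusted p 0.349).

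Twist1, a basic helix-loop-helix factor of the same transition, was the regulator among the 10 genes that passed the filter. Twist1 (ENSMUSG00000035799.6; chromosome 12, 33957671 to 33959829, plus strand, GRCm38) gave 1, 1 and 8 counts in lines 6, 23 and 34 when heterozygous, and 22, 57 and 14 counts in the LOH libraries, by line. Scaled, these were 0.033, 0.074 and 0.267 CPM against 1.28, 2.15 and 0.652 CPM. Every LOH library lay above every heterozygous one, and line 34 held both the highest heterozygous and the lowest LOH value. Within the lines, LOH exceeded heterozygous by ratios of 38.4 (exact 95% interval 6.2 to 1584) in line 6, 29.0 (5 to 1165) in line 23 and 2.44 (0.956 to 6.72) in line 34. These intervals cover counting error only, and that of line 34 includes no difference. Group means were 0.125 ± 0.125 and 1.36 ± 0.753 CPM (n = 3 libraries, SD).

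The log2 fold change of Twist1 was 3.33 (SE 0.81), with an edgeR adjusted p of 0.0625, which missed 0.05. With the organoid line as a block the adjusted p was 0.157 in edgeR, and in DESeq2 without a block it was 0.00765. The log2 fold change was 4.66 without heterozygous line 34, 5.01 without both libraries of line 34 and 2.64 without both of line 23, and from 2.81 to 4.66 without any 1 library. Permuting the genotype labels over log2 CPM (exact, two-sided) gave p = 0.1, the lowest that 3 libraries against 3 can give. Twist1 passed the filter through the LOH libraries, and even there it stayed at 1.26 TPM or less. The fibroblast marker sum moved with it, from at most 0.1 CPM in heterozygous to at least 0.559 CPM in LOH libraries. Pdgfra, Pdgfrb and Col1a1 carried it in LOH lines 6 and 23. In LOH line 34 it was spread over more genes, with Col1a2 at 3 counts, Fap at 2, and Dcn and Lum at 1 each. Pdgfra had 0 counts in each heterozygous library and 9, 1 and 2 in LOH lines 6, 23 and 34, Pdgfrb at most 1 and then 5, 11 and 1, and Col1a1 at most 1 and then 1, 7 and 2. The other 7 of the 10 genes never exceeded 3 counts, and Col3a1, Thy1 and Dpt had 0 in every library. The part of these markers in the Twist1 values was not tested.

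Among the 10 genes, 6 entered the test and 0 passed an edgeR adjusted p of 0.05, where 5.21% of 14537 tested genes passed. At an unadjusted p under 0.05 there were 2, Twist1 and S100a4, against 25.3% of all genes tested. The same 2 passed in DESeq2, which called 13.7% of the 16449 genes it gave an adjusted p and gave none to Vim. Among the 14537 genes tested in edgeR, from which the DESeq2 counts of the lists below are taken, DESeq2 called 2116. With the line as a block, edgeR passed 0 of the 6, with 2 at an unadjusted p under 0.05, against 1.47% and 20% of all genes. The LOH library was on the same side in all 3 lines for Twist1, Vim and Fn1, as for 44.5% of all genes tested, and the groups were separate for Twist1, as for 32.8%. For Vim the shared side is nominal, since every line's interval for the LOH-to-heterozygous ratio included no difference. These exact 95% intervals, for counting error only, were 0.0275 to 1.09, 0.243 to 2.61 and 0.839 to 1.17 in lines 6, 23 and 34.

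**Figure D2:**
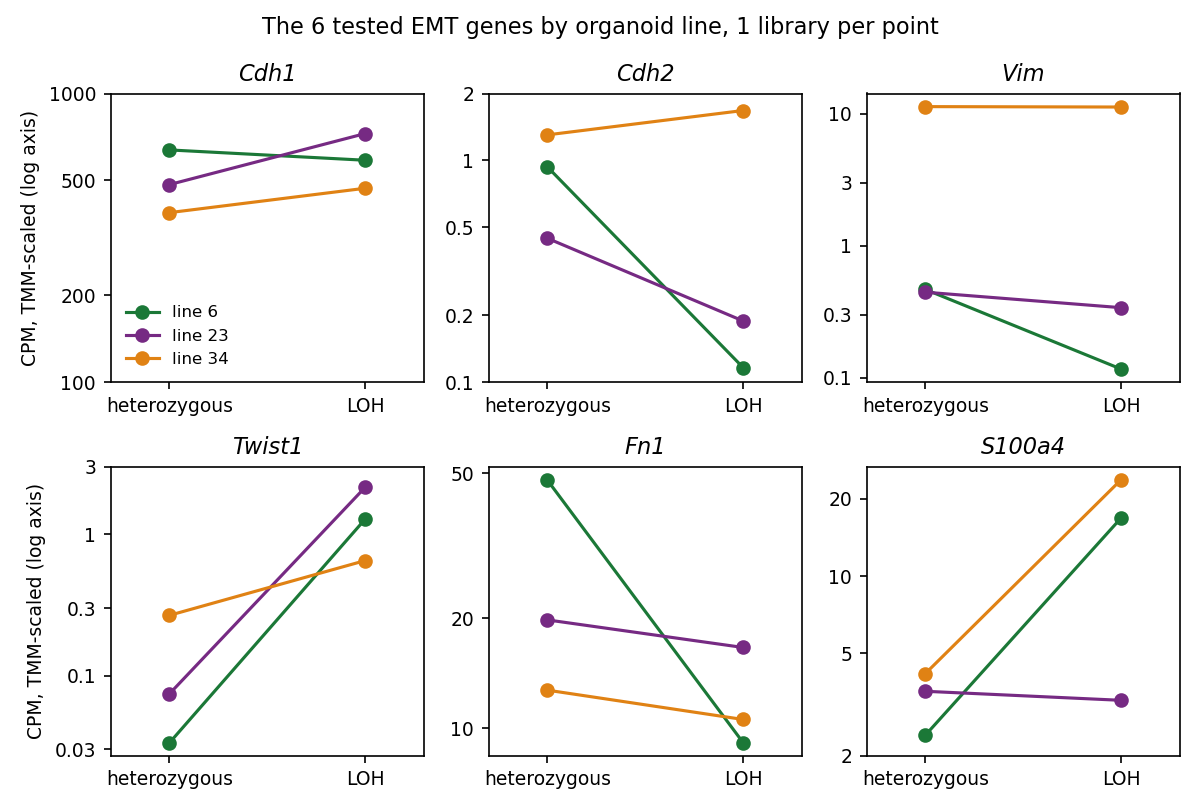
CPM (log axes, ranges differ between panels) of the 6 tested EMT genes in heterozygous and LOH libraries, 1 point per library and 1 coloured line per organoid line. Twist1 is higher in the LOH library of each line, Fn1 is far apart in line 6 alone (47.8 against 9.14 CPM), and Vim separates line 34 from the others in both genotypes.

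E-cadherin transcripts stayed abundant in both genotypes. Cdh1 (ENSMUSG00000000303.12; chromosome 8, 106603351 to 106670246, plus strand) gave 637.6, 483.5 and 386.6 CPM in lines 6, 23 and 34 when heterozygous, and 587.2, 726.3 and 469.6 CPM in the LOH libraries, by line. The groups overlapped, and line 34 had the lowest value in each genotype. Group means were 502.6 ± 126.6 and 594.4 ± 128.5 CPM (n = 3 libraries, SD), with a log2 fold change of 0.24 (standard error 0.26, adjusted p 0.581 in edgeR). The log2 ratios in lines 6, 23 and 34 were -0.12, 0.59 and 0.28, so the lines did not share a direction. On the TPM scale the difference turned to -0.15 in limma, where the median of all genes tested was itself -0.35 with a pseudocount of 1 and -0.42 with one of 0.1. Line took 60.4% of the variance of log2 CPM of Cdh1 and genotype 16.9%. Line has more levels than genotype and so takes a larger share on average even without an effect, and these shares were not tested. Its main coding transcript, Cdh1-201, carried from 99% to 100% of the gene's TPM.

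N-cadherin, which replaces E-cadherin in the textbook cadherin switch, was low, and close to the detection limit in LOH line 6 and both libraries of line 23. Cdh2 (ENSMUSG00000024304.14; chromosome 18, 16588877 to 16809246, minus strand) gave 28, 6 and 39 counts in lines 6, 23 and 34 when heterozygous, and 2, 5 and 36 counts in the LOH libraries, by line. These were 0.934, 0.445 and 1.3 CPM against 0.116, 0.189 and 1.68 CPM. Line 34 was the highest in both genotypes, and the groups overlapped. The log2 fold change was -0.46 (standard error 0.96, adjusted p 0.792 in edgeR), and -1.03 with the line as a block (adjusted p 0.508). In line 6 the heterozygous-to-LOH ratio was 8.02 (exact 95% interval 2.02 to 69.5, counting error only, from 28 and 2 counts), and the intervals of the other lines included 1. Leaving line 6 out moved the log2 fold change to 0.0015, and leaving out LOH line 34 moved it to -2.51 (edgeR adjusted p 0.0967). By TPM, Cdh1 made up 99.61% to 99.98% of the sum of both cadherins in every library.

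Vimentin set line 34 apart from the other lines in both genotypes. Vim (ENSMUSG00000026728.9; chromosome 2, 13573927 to 13582826, plus strand) gave 14, 6 and 340 counts in lines 6, 23 and 34 when heterozygous, and 2, 9 and 242 counts in the LOH libraries, by line. Scaled, these were 0.467, 0.445 and 11.35 CPM against 0.116, 0.340 and 11.27 CPM. Both libraries of line 34 were high and the other 4 low, whatever the genotype. In line 34 the LOH-to-heterozygous ratio was 0.993 (exact 95% interval 0.839 to 1.17, counting error only). Line took 96.6% of the variance of log2 CPM and genotype 1.62%. The log2 fold change between genotypes was -0.08 (standard error 1.72, adjusted p 0.984 in edgeR), and it followed single libraries, being 3.08 without heterozygous line 34 and -4.09 without LOH line 34. In line 34 the coding transcripts Vim-201 and Vim-206 took 49.8% and 21.1% of the gene's TPM in the heterozygous library and 46.8% and 30.4% in the LOH library. Cdh1 was lowest in line 34 within each genotype, and Cdh2 and S100a4 highest, each on 1 library per line and genotype. Other genes did not follow. By TPM, Fn1 was lowest in line 34 within each genotype (2.05 TPM when heterozygous, 1.14 TPM with LOH), though by CPM its lowest LOH value was in line 6. Twist1 was highest of its group in heterozygous line 34 and lowest in LOH line 34. The epithelial marker sum was the highest of all libraries in LOH line 34 (12380.5 CPM).

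Fibronectin, the matrix glycoprotein deposited by mesenchymal cells and also by many epithelial tumours, was farthest apart between genotypes in line 6. Fn1 (ENSMUSG00000026193.15; chromosome 1, 71585520 to 71653200, minus strand) gave 47.8, 19.8 and 12.7 CPM in lines 6, 23 and 34 when heterozygous, and 9.14, 16.6 and 10.6 CPM in the LOH libraries, by line. Its value in heterozygous line 6 (1434 counts) stood above all others, and the LOH library of each line had the lower value. Without that library the groups still overlapped. Group means were 26.8 ± 18.6 and 12.1 ± 3.99 CPM (n = 3 libraries, SD), and the log2 fold change of -1.14 (SE 0.51) missed the threshold (edgeR adjusted p 0.213). Log2 ratios were -2.38, -0.25 and -0.26 in lines 6, 23 and 34, and the log2 fold change was -0.45 without heterozygous line 6 and -0.28 without both libraries of line 6. In counting error alone, the heterozygous-to-LOH ratio was 5.23 (exact 95% interval 4.44 to 6.21) in line 6, 1.19 (1.02 to 1.39) in line 23 and 1.20 (1.02 to 1.42) in line 34. The antisense gene Apol7d, which overlaps 1 end of Fn1, had 0 to 6 counts.

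Fn1 is spliced differently in plasma and in tissue, since the cellular form can include the extra domains EIIIA (EDA) and EIIIB (EDB). In the annotation, a 270-base exon at chromosome 1, 71603660 to 71603929, and a 273-base exon at 71613763 to 71614035 have the lengths of those domains. The first is included in 4 of the 7 coding transcripts that span both, and the second in 1 of 7. Transcripts with the 270-base exon took 30.1%, 21.2% and 21.8% of the spanning TPM in the heterozygous libraries of lines 6, 23 and 34, and 23.3%, 25.3% and 7.34% in the LOH libraries. The groups overlapped, with LOH line 34 lowest, on 17 of 226 counts. Transcripts with the 273-base exon took 2.31%, 0% and 4.6%, and 0%, 6.90% and 0%. These shares are the authors' transcript estimates from short reads, so no interval is attached.

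S100a4 gave the second-widest difference, carried by lines 6 and 34. S100a4 (ENSMUSG00000001020.8; chromosome 3, 90603771 to 90606045, plus strand) gave 72, 48 and 125 counts in lines 6, 23 and 34 when heterozygous, and 289, 87 and 509 counts in the LOH libraries, by line. These were 2.40, 3.56 and 4.17 CPM against 16.8, 3.28 and 23.7 CPM. LOH lines 6 and 34 were above every heterozygous library, whereas LOH line 23 lay within their range. The ratio of LOH to heterozygous was 7 (exact 95% interval 5.39 to 9.20) in line 6, 5.68 (4.66 to 6.96) in line 34 and 0.922 (0.641 to 1.34) in line 23, for counting error only. The difference between lines was not tested, since each line has 1 library per genotype.

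S100a4 averaged 3.38 ± 0.899 CPM over the heterozygous and 14.6 ± 10.4 CPM over the LOH libraries (n = 3 libraries, SD). Its log2 fold change was 2.11 (standard error 0.67, adjusted p 0.109 in edgeR), and 1.81 with the line as a block (adjusted p 0.228). Without LOH line 23 it was 2.58 and passed (edgeR adjusted p 0.029), and in DESeq2 on all libraries it was 2.09 (adjusted p 0.0133), within a range of adjusted p from 0.0133 to 0.406 over 18 alternatives. The exact two-sided permutation p was 0.3. Leukocytes also express S100a4, and the leukocyte marker sum was 4.19, 7.70 and 14.9 CPM in LOH lines 6, 23 and 34, against at most 2.37 CPM in heterozygous libraries. Most of that sum was Cd68, and Laptm5 had 0 counts in each heterozygous library and 16, 2 and 1 in the LOH libraries. Csf1r did not share that direction, at 16, 2 and 3 counts when heterozygous and 1, 8 and 2 with LOH. Lyz2, Tyrobp and Adgre1 had 0 in all 6 libraries and Ptprc at most 7. The fibroblast marker sum was 0.873, 0.717 and 0.559 CPM in LOH lines 6, 23 and 34, against at most 0.1 CPM. The part of either list in the S100a4 values was not tested. The overlapping gene Gm42674 on the same strand had 0 to 2 counts. S100a4 and Twist1 differed in which lines carried them, since LOH line 23 had the highest Twist1 value and the lowest S100a4 value of its group.

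The genes whose log2 CPM ran most like these over the 6 libraries, among at least 10081 genes with a mean of 5 CPM or more, are given as a description without a test, since libraries share lines and each gene shares their depth. For Cdh1 they were Bcorl1 (Pearson r 0.989), Mkl1 (0.988) and Gatad2b (0.983). For Vim they were Cebpb (0.970), Rad51ap1 (0.962) and Gm21312 (0.959), and for Fn1 Slc35d1 (0.971) and Dot1l (0.955). For S100a4 they were Hectd3 (0.996), Rsu1 (0.993) and Cdc25b (0.990).

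Around these genes, some of the factors that hold cells in the epithelial state rose in LOH organoids. Of 14 such genes 13 were tested, and 4 rose and 0 fell, against 3.55% and 1.66% of all genes tested. This list and those below were chosen with earlier results of these data known, so such shares are a description without a test. The median log2 fold change of the 13 was 0.73, beside 0.06 over all genes tested, and it was 0.79, 0.40 and 0.93 in lines 6, 23 and 34. Elf3, an epithelial ETS factor, rose from 70.3 ± 13.2 to 226.9 ± 19.0 CPM (n = 3 libraries, SD), a log2 fold change of 1.69 (standard error 0.20, adjusted p 0.0164 in edgeR, 0.0453 with the block). Grhl3, a grainyhead factor of epithelial barriers, rose from 0.969 ± 0.209 to 7.46 ± 2.05 CPM (n = 3 libraries, SD), by 2.94 on the log2 scale (standard error 0.37, adjusted p 0.0164 in edgeR, 0.0431 with the block). Klf4, a factor of epithelial differentiation, changed by 1.18 (SE 0.17, adjusted p 0.0208) and the intestinal factor Cdx2 by 1.56 (SE 0.27, adjusted p 0.029) in edgeR. Neither of these passed with the block, at adjusted p-values of 0.0852 and 0.0645. Ovol1, a repressor of Zeb1, had a log2 fold change of 1.16 that did not pass (edgeR adjusted p 0.133). Grhl2 (0.12) and the splicing regulator Esrp1 (-0.11) were near 0, and their signs turned under some settings.

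**Figure D3:**
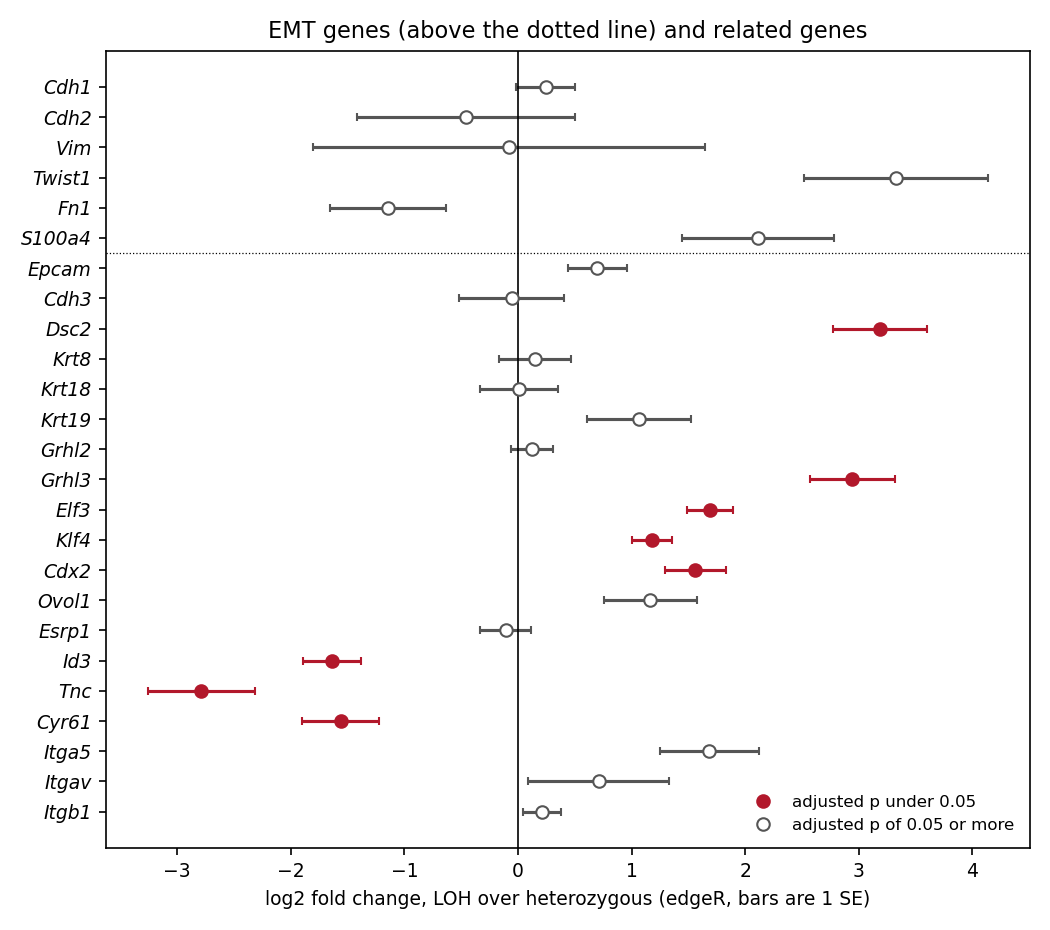
Log2 fold change of LOH over heterozygous libraries (horizontal axis, edgeR, bars are 1 SE) for the 6 tested EMT genes, above the dotted line, and for related genes below it, with filled red points for an adjusted p under 0.05. None of the upper 6 is red, while Dsc2 at 3.19 and Grhl3 at 2.94 lie far to the right and Tnc at -2.79 far to the left. Tnc passed the filter on low counts through the heterozygous libraries.

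Of 32 genes of junctions, polarity and simple keratins 1 rose and 0 fell, a share near the 3.55% and 1.66% of all genes tested. The median log2 fold change was 0.30, and DESeq2 called 4 of the 32, against 13.7% of all genes. That gene was Dsc2, a desmosomal cadherin, at 12.3, 6.01 and 7.04 CPM in heterozygous and 75.9, 108.5 and 47.3 CPM in LOH libraries, in the order of lines 6, 23 and 34. Its groups did not overlap, and its log2 fold change was 3.19 (standard error 0.42, adjusted p 0.0164 in edgeR, 0.0397 with the block). The adhesion molecule Epcam had a log2 fold change of 0.70 (edgeR adjusted p 0.154), and P-cadherin (Cdh3) one of -0.06 (0.950), turning to 0.33 without LOH line 34. The keratins Krt8 (0.15), Krt18 (0.005) and Krt19 (1.07) did not pass. Krt18 and Krt8 changed sign with the scaling or the libraries used, so no direction is given for them.

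Of 15 other transcription factors and Id genes tied to EMT 9 were tested, and 0 rose and 1 fell, against 3.55% and 1.66% of all genes tested. DESeq2 called 3 of the 9 in either direction, against 13.7% of all genes. The gene that fell was Id3, an inhibitor of basic helix-loop-helix factors, which went from 47.1 ± 8.94 to 15.2 ± 3.80 CPM (n = 3 libraries, SD). Its log2 fold change was -1.64 (standard error 0.25, adjusted p 0.023 in edgeR), and with the block it did not pass (0.0721). The median of the 9 was -0.46, and in fits that kept more genes of low counts the list's median turned to 0.69 in edgeR with no filter and 0.77 in DESeq2.

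Of 36 mesenchymal effectors beyond the 10 genes 20 were tested, and 0 rose and 2 fell, against 3.55% and 1.66% of all genes tested. In either direction, DESeq2 called 5 of the 20, against 13.7% of all genes, and edgeR with the block 0, against 1.47%. Over the 20 the median was 0.06 on the log2 scale, equal to that of all genes to 2 decimals. Its medians by line were -1.42, -0.03 and 0.31 in lines 6, 23 and 34, so line 6 stood apart from line 34. Fn1 was lower in LOH in each line, and by the most in line 6. The list's median was 0.35 without line 6, -0.29 with the line as a block and -1.12 in limma on log2(TPM + 0.1). The matrix protein Tnc fell from 0.991 ± 0.172 to 0.140 ± 0.042 CPM (n = 3 libraries, SD), a log2 change of -2.79 (standard error 0.47, adjusted p 0.0275 in edgeR). It had 34, 14 and 24 counts in heterozygous and 3, 4 and 2 in LOH libraries of lines 6, 23 and 34. Tnc passed the filter through the heterozygous libraries, so the size of its fall is limited by depth. Cyr61, a secreted matricellular protein, fell from 37.6 ± 8.58 to 12.7 ± 5.32 CPM (n = 3 libraries, SD), a log2 change of -1.56 (standard error 0.34, adjusted p 0.0481 in edgeR). With the block neither passed, at 0.0885 and 0.0925. Cdh11, a mesenchymal cadherin, had 0 to 9 counts and was not tested.

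**Figure D4:**
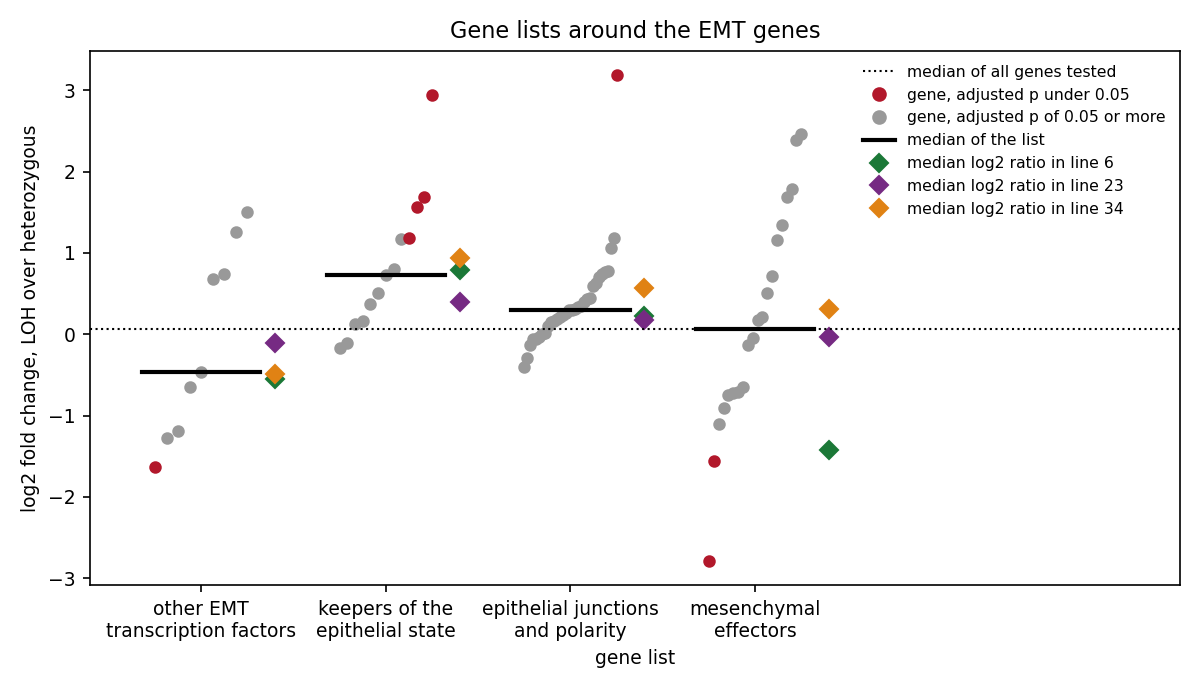
Log2 fold change (vertical axis, edgeR) of each tested gene in 4 lists, red where the adjusted p is under 0.05, with the list's median as a bar, its median log2 ratio in each line as diamonds and the median of all genes as a dotted line. Keepers of the epithelial state have a median of 0.73 with all 3 lines above 0, whereas the line medians of mesenchymal effectors run from -1.42 to 0.31. The lists were chosen with earlier results of these data known.

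Partners of the cadherins (catenins) and receptors of fibronectin (integrins and a syndecan) made up a list of 10 genes. Of these 8 were tested and 0 passed in edgeR, with 1 at an unadjusted p under 0.05 and 1 in DESeq2, beside 5.21%, 25.3% and 13.7% of all genes, so none of these shares lay above the background. That 1 was Itga5, the alpha subunit of the classical fibronectin receptor, with a log2 fold change of 1.69 (edgeR adjusted p 0.0711, DESeq2 adjusted p 0.00855) at means of 1.10 ± 0.548 and 3.60 ± 0.472 CPM (n = 3 libraries, SD). Its groups were separate, as were the fibroblast and leukocyte marker sums, whose part in it was not tested. Itgav had a log2 fold change of 0.71 (edgeR adjusted p 0.5) and the shared beta subunit Itgb1 one of 0.21. Both turned below 0 on the TPM scale, where the median of all genes tested was -0.35 or lower. Epithelial markers used to check the cell type overlapped these lists, and 2 of 10 rose, against 3.55% of all genes tested. They were Elf3 and the galectin Lgals4 (log2 fold change 2.24, SE 0.38, edgeR adjusted p 0.0279, 0.0735 with the block). Every one of the calls in these lists was lost when any 1 heterozygous library was left out, since edgeR then called 0 of all genes, with 2272 to 2966 at an unadjusted p under 0.05.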

How the data were processed

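Libraries were made from 6 organoid cultures with the TruSeq Stranded Total RNA kit, as the labels' protocols state. The authors deposited expected counts and TPM per gene and transcript, in RSEM's columns per the file headers, and the submitters' processing notes name FastQC 0.11.5, STAR 2.5.2b, RSEM 1.3.0, DESeq2 1.44.0 and the build GRCm38.p5. Expected counts are estimated counts that share ambiguous reads between genes, and the strand setting is not given in the sources used here. The deposited normalized tables hold a signal, the truncated count divided by 1 size factor per library in 100% of values within 0.01 of a count. These name 23525 genes, 9 of the 10 described here among them (Snai2 was found in the count table). The tables use GENCODE mouse release 16, per their names, and coordinates came from release 21 (GRCm38), promoters from RefSeq (GRCm38.p6).

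Groups and line numbers came from the titles. Rounded expected counts were filtered by filterByExpr (14537 genes kept), scaled by TMM and tested with edgeR 4.0.16 (R 4.3.3), by its two-sided quasi-likelihood test, with Benjamini-Hochberg adjustment over all genes tested and a threshold of 0.05. Log2 CPM used a prior count of 2. Ratios within a line carry exact binomial 95% intervals, which cover counting error alone because reads carry no molecular identifiers. Alternatives changed the scaling (RLE, upper quartile), the low-count filter (none, or a minimum of 10 counts throughout), the gene set (17313 protein-coding genes) or the design (a block by line), left out each library or line, or used DESeq2 1.42.0 or limma 3.58.1, the last on TPM with a pseudocount of 1 or 0.1 for genes reaching 1 TPM in 3 libraries. The edgeR script was tested on simulated data. Tables and figures used Python 3.11.15, numpy 2.4.6, pandas 2.3.3, scipy 1.17.1 and matplotlib 3.10.9.

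By title, equal numbers mark 1 organoid line, so the numbers pair the libraries. The main test did not use this pairing, and the fit with the line as a block did. With the block, log2 fold changes of Cdh1, Vim and Fn1 were 0.25, -0.57 and -0.94 (edgeR adjusted p 0.603, 0.559 and 0.372). Deviations from group means correlated across genes within lines 6, 23 and 34 at -0.30, 0.01 and 0.29, and between lines at -0.39 to 0.30.

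The 10 genes, the lists and the tests were chosen with earlier results of these data known. Named besides the 10 genes were up to 4 genes per list with the smallest p among those passing, 12 chosen by role, the genes most like Cdh1, Vim, Fn1 and S100a4, Trp53, overlapping genes, and cell type markers at or near 0 or high. Duplicate symbols were resolved to the gene with most counts. Some items that the rule names are not reported here.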

Additional observations from a re-analysis of the deposited data

Results flagged for a closer look

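Several results pointed in opposite directions in different organoid lines, which is given as the range of the log2 ratio (LOH over heterozygous) between the highest and the lowest line. Each line has 1 library per genotype, so differences between lines were not tested. Opposite signs occurred in 13 of the 32 results examined, and the other 19 had 1 sign in all 3 lines. The 32 include list medians and genes named because they passed the test between genotypes. Their share can therefore not be set beside the 44.5% of all genes tested with 1 sign.

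Among the EMT genes the range was 2.88 for S100a4 (line 23 below 0, lines 6 and 34 above), 2.67 for Cdh2 (line 34 above 0, the others below) and 0.71 for Cdh1 (line 6 below 0). Among related genes it was 3.40 for Itgav, 2.22 for Krt19, 1.87 for Cdh3, 1.38 for Krt8, 1.27 for Krt18, 0.61 for Esrp1, 0.44 for Itgb1 and 0.43 for Grhl2. The list median had a range of 1.73 for mesenchymal effectors and 1.39 for epithelial markers.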

How the results depend on the processing

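The count of EMT genes called was 0 in 16 of 18 alternatives, 2 in DESeq2 and 1 (S100a4) without LOH line 23, so from 0 to 1 without 1 library. Many of these zeros carry no weight. Fits without any 1 heterozygous library, without line 23 or without line 34 called 0 of all genes. With a minimum of 10 counts throughout and in both limma fits, only 3 of the EMT genes were tested, and 4 without line 34. Over all genes the calls numbered 757, and 213 with the line as a replicate block, which ended the calls of Id3, Klf4, Cdx2, Tnc, Cyr61 and Lgals4. They numbered 2249 in DESeq2, 1911 and 1753 in limma on log2(TPM + 1) and log2(TPM + 0.1), from 0 to 2449 without 1 library, 1422 without line 6, and 0 without line 23 or line 34 (2253 and 2097 at an unadjusted p under 0.05). In limma 280 of the 1911 calls were higher and 1631 lower, against 516 and 241 in edgeR, with the median of all genes tested at -0.35. It was 0.15 with no filter and in DESeq2.

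Some log2 fold changes changed sign. In the 2 limma fits, in that order, they were -0.15 and -0.15 for Cdh1, -0.17 and -0.18 for Grhl2, -0.32 and -0.32 for Krt8, -0.49 and -0.49 for Krt18, -0.039 and -0.064 for Itgav, and -0.21 and -0.21 for Itgb1. Without line 6 they were 0.0015 for Cdh2 and -0.013 for Grhl2, without line 23 0.014 for Esrp1, and without line 34 0.25 for Cdh3, -0.31 for Krt8, -0.37 for Krt18 and -0.054 for Itgav. Without 1 library they ran from -4.09 to 3.08 for Vim, -0.46 to 0.33 for Cdh3, -0.0078 to 0.24 for Grhl2, -0.37 to 0.018 for Esrp1, -0.28 to 0.35 for Krt8 and -0.37 to 0.26 for Krt18. Krt18 was also -0.0082 with RLE scaling, -0.032 with upper quartile scaling, -0.034 with no filter, -0.10 with the block and -0.025 in DESeq2. The cause of these changes was not tested. Zeb1, Zeb2, Snai1 and Snai2, at 3 counts or fewer, Twist1 in heterozygous libraries and Tnc in LOH libraries are limited by depth.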
